A study of Homo sapiens with 6 samples.

Results

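The genes described here were 9 antioxidant genes of the NRF2 pathway, namely NFE2L2, KEAP1, SLC7A11, GCLC, GCLM, TXNRD1, SRXN1, NQO1 and HMOX1. They were picked by symbol from the 78932 genes of a table of read counts. Poly(A) RNA was sequenced from T24 cells, a human urothelial carcinoma line, in 3 cultures transfected with the control siRNA siNC and 3 transfected with siRNA against TRIM28 (siTRIM28). TRIM28 is a nuclear corepressor that also acts as a ligase for ubiquitin and SUMO, and the study asked how its loss changes gene expression in bladder cancer cells. All 6 cultures were of this single line, without any other treatment in the labels, and were titled as replicates 1 to 3 of their group. The titles name no batch. The sources used here do not state which of the study's TRIM28 siRNAs these cultures received, so an effect of lower TRIM28 and an effect of the siRNA itself cannot be told apart.

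NRF2, the protein of NFE2L2, is the main transcription factor of the response to oxidants and electrophiles. In unstressed cells KEAP1, an adaptor of the CUL3 ubiquitin ligase, binds NRF2 and directs it to the proteasome. Reactive compounds modify cysteines of KEAP1, and NRF2 then accumulates, pairs with small MAF proteins and binds antioxidant response elements near its target genes. Much of this control acts on the protein, so the mRNA level of NFE2L2 is not a measure of NRF2 activity. The targets chosen here serve the synthesis of glutathione (SLC7A11, GCLC, GCLM), the thioredoxin system (TXNRD1, SRXN1), the reduction of quinones (NQO1) and the breakdown of heme (HMOX1). Mutations that free NRF2 from KEAP1 are known in urothelial tumours.

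The promoters were searched for TGACNNNGC, the core letters of the antioxidant response element, on both strands. RefSeq promoters of GRCh38.p14, each spanning 250 bases before and 50 after a start site, matched 7 of the 9 genes and gave 10 sequences. HMOX1 and SLC7A11 had no promoter entry and were not searched. The core letters occurred in 4 of these 10 promoters, which belonged to 3 genes, GCLM, KEAP1 and TXNRD1, and in 13.3% of all 35116 promoters of this length. TGANTCA, the letters bound by AP-1 factors, occurred in 0 of the 10 and in 7.71% of all promoters. The matches are printed as windows of 29 bases on the strand of the gene, because 1 of the 3 genes rose and the other two fell in siTRIM28. Capitals mark the match, and letters that read as a match from the opposite strand appear as their reverse complement. A match is a description of the letters and not of a bound site.
GCLM, 34 bases before the start site, opposite strand: tacgatttctGCTTAGTCAttgtcttcca
KEAP1, 31 bases before the start site, opposite strand: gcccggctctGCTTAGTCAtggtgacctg
KEAP1, 54 bases before the start site, gene strand: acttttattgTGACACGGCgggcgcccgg
TXNRD1, 102 bases before the start site, opposite strand: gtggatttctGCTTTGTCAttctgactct
TXNRD1, 99 bases before the start site, gene strand: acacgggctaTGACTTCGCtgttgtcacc
TXNRD1, 8 bases before the start site, opposite strand: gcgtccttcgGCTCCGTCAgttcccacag

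The GCLM and KEAP1 promoters held the same 9 letters in the same orientation. The first TXNRD1 match lay in the promoter at chr12:104286782-104287081 and the other two in the promoter at chr12:104215529-104215828, both on the plus strand. The KEAP1 matches lay at chr19:10502722-10503021 on the minus strand, and the second KEAP1 promoter held none. The whole promoters of GCLM (chr1:93909381-93909680, minus strand) and NQO1 (chr16:69726511-69726810, minus strand) are given because GCLM had the largest fall of the 9 genes and NQO1 rose. Capitals again mark the core letters, and the NQO1 window held none. Sequence farther from a start site than this window was not searched, so a lack of matches here does not mean that a gene lacks the element.
GCLM: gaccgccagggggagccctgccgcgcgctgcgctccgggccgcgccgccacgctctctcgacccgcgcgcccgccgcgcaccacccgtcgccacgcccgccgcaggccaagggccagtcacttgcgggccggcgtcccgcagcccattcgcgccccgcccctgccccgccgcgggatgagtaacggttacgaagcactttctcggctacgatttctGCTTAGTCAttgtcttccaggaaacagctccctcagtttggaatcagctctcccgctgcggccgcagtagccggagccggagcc
NQO1: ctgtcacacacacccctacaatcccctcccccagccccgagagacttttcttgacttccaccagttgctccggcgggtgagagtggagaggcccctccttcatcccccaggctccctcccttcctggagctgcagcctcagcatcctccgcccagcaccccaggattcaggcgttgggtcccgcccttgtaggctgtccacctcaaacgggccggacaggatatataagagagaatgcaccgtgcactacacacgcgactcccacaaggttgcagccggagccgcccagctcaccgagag

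Total counts lay between 12989362 and 13942383 in siNC and between 11712623 and 14018052 in siTRIM28. TRIM28 itself fell from 103 ± 4.08 to 8.84 ± 0.656 CPM (counts scaled to library size by the TMM method of edgeR, mean ± SD, n = 3 each, adjusted p = 1.03e-10 by edgeR). Replicates 1 and 2 of siNC and replicates 2 and 3 of siTRIM28 lay closer to each other than to the remaining library of their group, with a chi-square per degree of freedom of 1.08 and 1.22 against 4.17 to 6.25 for the other pairs. Counting noise alone gives a value near 1, so the libraries of each close pair differed by little more than that. The tests treat the 3 libraries of a group as independent, and whether the close pairs came from independent cultures was not tested. siNC replicate 3 and siTRIM28 replicate 1 were thus the libraries that stood apart in their groups, and values without a library are given where they matter. Of 11 urothelial and epithelial markers, KRT7, KRT8 and KRT18 reached 1 CPM in every library and 7 stayed under 1 CPM in every library, among them EPCAM, CDH1 and GATA3. The markers summed to between 191 and 197 CPM in siNC and between 210 and 218 CPM in siTRIM28, and their part in the results was not tested. Of 6 markers of blood, endothelial and stromal cells, CD68 alone reached 1 CPM in every library, and CDH5 was at 0 throughout. CD68 was abundant, at 337 to 360 CPM, which exceeded the sum of the 11 urothelial and epithelial markers in every library. The 5 genes other than CD68 summed to at most 1.18 CPM in any library. VIM, a mesenchymal marker, lay between 1089 and 1112 CPM in siNC. It lay between 1322 and 1426 CPM in siTRIM28 and was called higher. So were 3 of the 4 urothelial and epithelial markers tested, and 0 were called lower, where 21.3% of all genes tested were called higher. These were KRT7, KRT8 and UPK1A, with log2 fold changes of 0.56, 0.14 and 1.94. UPK1A was low, at a mean of 0.871 CPM in siNC and 3.40 CPM in siTRIM28. What the CD68 and VIM levels reflect was not tested.

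The 9 genes did not move one way. NQO1, HMOX1 and TXNRD1 rose in siTRIM28, GCLM, KEAP1 and NFE2L2 fell, and SLC7A11, GCLC and SRXN1 did not pass the test. The 6 genes past an adjusted p of 0.05 (quasi-likelihood test of edgeR, with p-values of 18474 genes adjusted after Benjamini and Hochberg) were 66.7% of the 9, where 41.8% of all genes tested passed. The 3 that rose stand beside 21.3% of all genes called higher, and the 3 that fell beside 20.5% called lower. The siNC and siTRIM28 values did not overlap for these same 6 genes, and 52.0% of all genes tested had groups that did not overlap. The median log2 fold change of the 9 genes was 0.0022, and that of all genes tested was 0.015. An exact two-sided permutation test gave p = 0.1 for each of the 6, the smallest that 3 against 3 allow. The same count of 6 was reached without siTRIM28 replicate 1, and 5 without siNC replicate 2 or siTRIM28 replicate 2. All 9 genes passed the filter on low counts. A lower level in a bulk culture cannot tell less RNA per cell from fewer cells that carry it. The p-values measure the spread between these libraries alone, which are taken as independent.

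**Figure D1:**
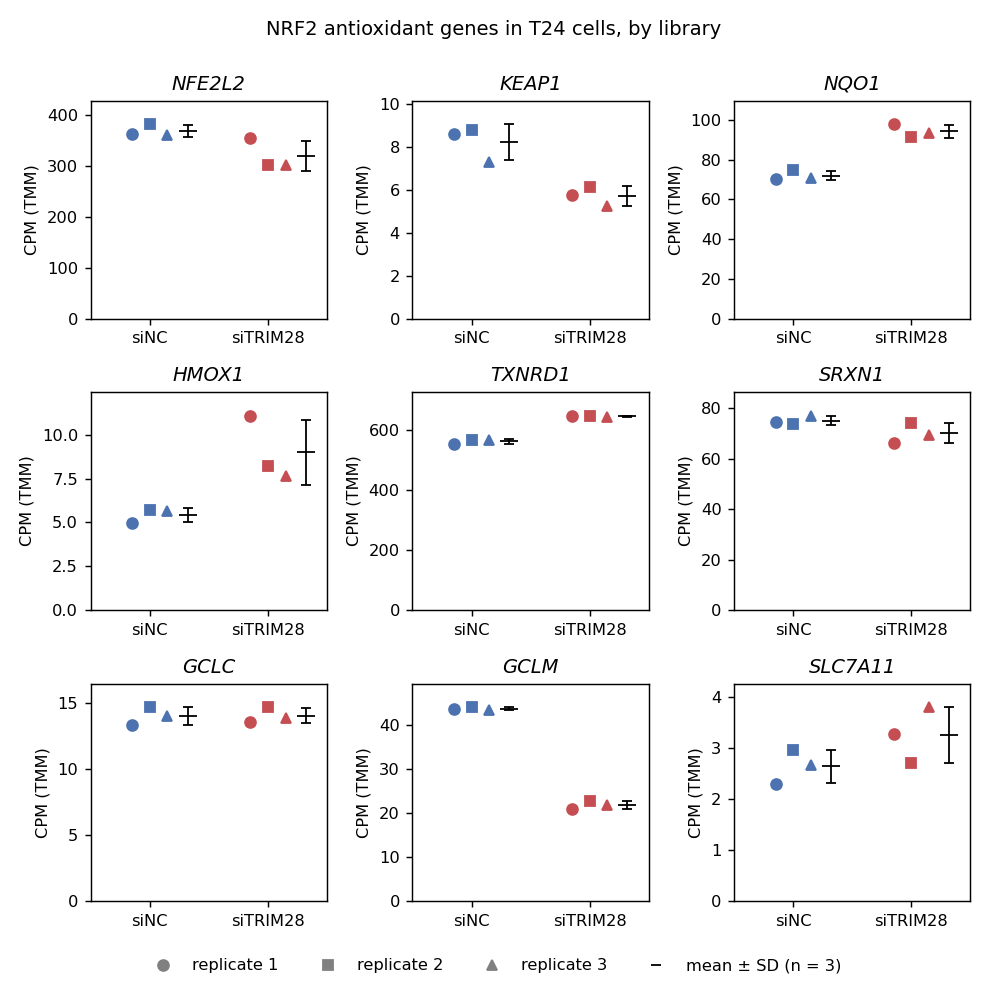
TMM-scaled CPM of each of the 9 genes in the 6 libraries, with siNC in blue, siTRIM28 in red, 1 marker shape per replicate number and a black bar for the mean ± SD of 3 libraries; every axis starts at 0. GCLM in siTRIM28 lay between 20.9 and 22.8 CPM, below every siNC library (43.5 to 44.1 CPM), while GCLC lay between 13.4 and 14.7 CPM in both groups.

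NFE2L2 (ENSG00000116044, minus strand of chromosome 2, 177218667 to 177392679 in the GRCh38 coordinates of the table) stood at 363, 381 and 360 CPM in siNC replicates 1, 2 and 3. In siTRIM28 replicates 1, 2 and 3 it stood at 353, 301 and 301 CPM. The groups did not overlap, but siTRIM28 replicate 1 was only just below the lowest siNC library. NFE2L2 fell by 13.4%, a log2 fold change of −0.21 (standard error 0.0596, 95% confidence interval −0.34 to −0.08, adjusted p = 0.0147 by edgeR). This call was lost without siNC replicate 2 (log2 fold change −0.19, adjusted p = 0.0527 by edgeR), without siTRIM28 replicate 2 (−0.17, adjusted p = 0.0587 by edgeR) and where the close pairs of libraries were summed (−0.16, adjusted p = 0.162 by edgeR). Without siTRIM28 replicate 1 it was −0.29, and the adjusted p over all 15 alternatives ran from 5.55e-07 to 0.162. HNRNPA3, a splicing factor gene on the opposite strand, overlaps the annotated range of NFE2L2 by 5276 bases. It had a mean of 11967 counts against 4512 for NFE2L2 and a log2 fold change of −0.29. The sources used here do not say whether reads were counted by strand, and the part of HNRNPA3 in the NFE2L2 value was not tested.

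KEAP1 (ENSG00000079999, minus strand of chromosome 19, 10486125 to 10503356), the inhibitor of NRF2, was a gene of low counts. It stood at 8.62, 8.79 and 7.27 CPM in siNC and at 5.77, 6.15 and 5.22 CPM in siTRIM28, from 62 to 122 counts per library. Every siTRIM28 library lay below every siNC library. KEAP1 fell by 30.6%, a log2 fold change of −0.53 (standard error 0.130, 95% confidence interval −0.81 to −0.24, adjusted p = 0.00651 by edgeR). The call held in each of the 15 alternatives, with log2 fold changes from −0.61 to −0.48. Set against the factor that it inhibits, KEAP1 had a ratio of counts to NFE2L2 of 0.0238, 0.0230 and 0.0202 in siNC and of 0.0163, 0.0204 and 0.0173 in siTRIM28. These ratios overlapped, with a log2 difference of −0.31 (exact two-sided permutation test, p = 0.2). The difference stayed negative in 8 alternatives, from −0.40 to −0.24. A test of 3 against 3 cannot go below 0.1, so it cannot decide whether KEAP1 fell beyond NFE2L2.

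Among the genes of glutathione synthesis, the subunits of glutamate-cysteine ligase, the enzyme of the rate-limiting step, parted. GCLM (ENSG00000023909, minus strand of chromosome 1, 93885199 to 93909430) encodes the modifier subunit, which raises the activity of the enzyme. It stood at 43.6, 44.1 and 43.5 CPM in siNC and at 20.9, 22.8 and 21.9 CPM in siTRIM28, from 260 to 613 counts per library. The libraries of each group lay close together and the groups far apart. GCLM fell by 50.1%, a log2 fold change of −1.00 (standard error 0.0621, 95% confidence interval −1.14 to −0.87, adjusted p = 2.48e-07 by edgeR), and held between −1.03 and −0.97 in the 15 alternatives. Its promoter carried 1 of the core matches printed above.

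GCLC (ENSG00000001084, minus strand of chromosome 6, 53497341 to 53616970) encodes the catalytic subunit. It stood at 13.4, 14.7 and 14.1 CPM in siNC and at 13.6, 14.7 and 13.9 CPM in siTRIM28. The groups overlapped almost fully. The log2 fold change was 0.0022 (standard error 0.0766, 95% confidence interval −0.17 to 0.17, adjusted p = 0.994 by edgeR), and its sign turned in 7 of the 15 alternatives. A change of GCLC within this interval was not detectable at 165 to 204 counts per library.

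The ratio of GCLM to GCLC counts does not depend on how libraries are scaled. It was 3.26, 3.00 and 3.09 in siNC and 1.53, 1.55 and 1.58 in siTRIM28. The log2 difference of −1.01 separated the groups fully (exact two-sided permutation test, p = 0.1, the smallest that 3 against 3 allow) and lay between −1.03 and −0.97 as each library was left out.

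SLC7A11 (ENSG00000151012, minus strand of chromosome 4, 138164097 to 138242349) encodes the cystine carrier of the exchanger that brings in cystine for glutathione. It was the least abundant of the 9 genes, at 2.30, 2.95 and 2.66 CPM in siNC and 3.27, 2.69 and 3.79 CPM in siTRIM28. These values rest on 32 to 46 counts per library, and the groups overlapped at siTRIM28 replicate 2. The log2 fold change of 0.30 had a 95% confidence interval from −0.12 to 0.72 and did not pass the test (standard error 0.192, adjusted p = 0.234 by edgeR). At this depth the interval held anything from 0.921 to 1.65 times the siNC level.

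In the thioredoxin system, TXNRD1 (ENSG00000198431, plus strand of chromosome 12, 104215779 to 104350274) encodes cytosolic thioredoxin reductase, which returns electrons from NADPH to thioredoxin. It stood at 553, 565 and 566 CPM in siNC and at 646, 648 and 643 CPM in siTRIM28. The spread within each group was small and the groups did not overlap. TXNRD1 rose by 15.0%, a log2 fold change of 0.20 (standard error 0.0338, 95% confidence interval 0.13 to 0.28, adjusted p = 0.000549 by edgeR), and ran from 0.19 to 0.24 in the alternatives. Both of its promoters held core matches, so the 3 genes with matches comprised GCLM and KEAP1, which fell, and TXNRD1, which rose.

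SRXN1 (ENSG00000271303, minus strand of chromosome 20, 646615 to 653200) encodes sulfiredoxin, which repairs overoxidized peroxiredoxins. It stood at 74.4, 74.0 and 77.1 CPM in siNC and at 66.4, 74.3 and 69.5 CPM in siTRIM28. siTRIM28 replicate 2 fell within the range of siNC, and the log2 fold change of −0.10 did not pass the test (standard error 0.0560, 95% confidence interval −0.22 to 0.02, adjusted p = 0.171 by edgeR). An unnamed gene on the same strand (ENSG00000270299) covers 6575 bases of this locus and held a mean of 859 counts, 90.5% of those of SRXN1, with a log2 fold change of −0.09. How reads were split between them is not given in the sources used here, so the level of SRXN1 is uncertain.

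NQO1 (ENSG00000181019, minus strand of chromosome 16, 69706996 to 69726560) encodes the quinone reductase that is widely read as a marker of NRF2 activity. It stood at 70.2, 74.5 and 70.7 CPM in siNC and at 97.8, 91.5 and 93.4 CPM in siTRIM28. All siTRIM28 libraries lay above all siNC libraries. NQO1 rose by 31.2%, a log2 fold change of 0.39 (standard error 0.0509, 95% confidence interval 0.28 to 0.50, adjusted p = 8.19e-05 by edgeR), and between 0.36 and 0.43 in the alternatives.

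HMOX1 (ENSG00000100292, plus strand of chromosome 22, 35380361 to 35394214) encodes heme oxygenase 1, which breaks heme down to biliverdin, iron and carbon monoxide. It stood at 4.95, 5.69 and 5.63 CPM in siNC and at 11.1, 8.25 and 7.66 CPM in siTRIM28, from 69 to 156 counts per library. The groups did not overlap, and siTRIM28 replicate 1 lay above the mean of the other siTRIM28 libraries by 0.47 on the log2 scale. HMOX1 rose by 67.3%, a log2 fold change of 0.74 (standard error 0.157, 95% confidence interval 0.40 to 1.09, adjusted p = 0.00261 by edgeR). Without siTRIM28 replicate 1 the log2 fold change was 0.55 (adjusted p = 0.00543 by edgeR, in a range of 1.28e-06 to 0.0174 over the alternatives). HMOX1 was the only one of the 9 genes with no other annotated gene in its range.

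**Figure D2:**
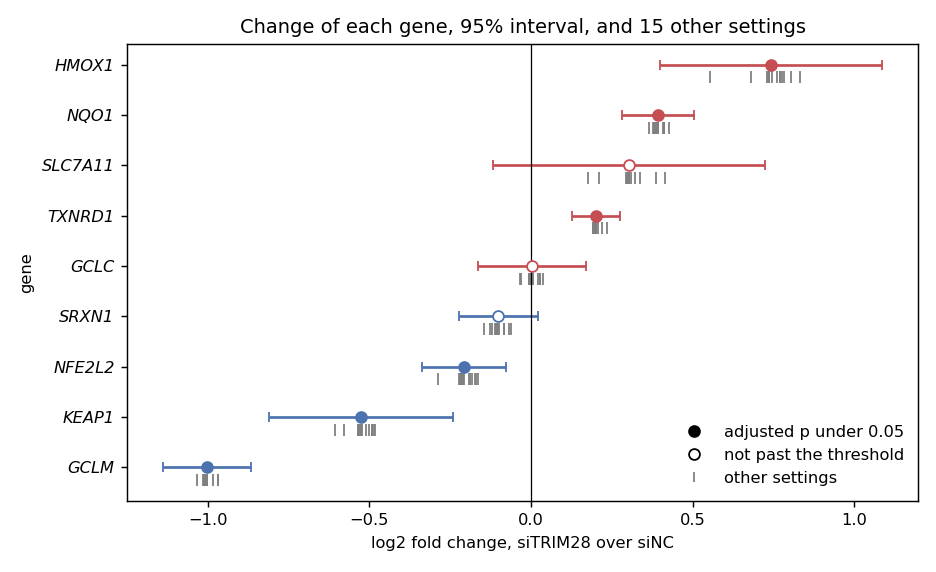
Log2 fold change of siTRIM28 over siNC for the 9 genes, with bars for the 95% confidence interval, filled points for an adjusted p under 0.05 and grey ticks for the 15 other settings of scaling, test, filter and libraries. The order runs from HMOX1 (0.74) to GCLM (−1.00), and the intervals of SLC7A11, GCLC and SRXN1 cross 0.

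The levels of different genes can be compared only per length, here as RPKM, the counts divided by annotated exon length and scaled library size. In siNC the mean RPKM was 83.7 for TXNRD1, 29.7 for SRXN1, 24.6 for NFE2L2, 24.2 for NQO1, 8.06 for GCLM, 2.35 for HMOX1, 2.30 for KEAP1, 1.63 for GCLC and 0.273 for SLC7A11. NFE2L2 and NQO1 overlapped in this order, as did HMOX1 and KEAP1, and all other neighbours were apart in every siNC library. In siTRIM28 NQO1 had a mean of 31.7 RPKM and stood above SRXN1 (27.7) and NFE2L2 (21.3), while GCLM (4.03) overlapped HMOX1 (3.91) and KEAP1 (1.60) overlapped GCLC (1.63). TXNRD1 remained the highest and SLC7A11 the lowest in every library. The annotated length of NFE2L2, 14975 bases, was the longest of the 9 and lowers its RPKM if most reads come from shorter transcripts.

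The genes with the pattern most like that of NFE2L2 over the 6 libraries were BTN2A2 (Pearson r = 0.999 of log2 CPM), TIMELESS (0.997) and PIGF (0.995), among 12820 genes with a mean of at least 50 counts. BTN2A2 and PIGF were called lower (log2 fold changes of −0.24 and −0.31), but TIMELESS was not called (−0.07, adjusted p = 0.211 by edgeR). For NFE2L2, siTRIM28 replicate 1 lay 0.23 above the mean of replicates 2 and 3 on the log2 scale. The part of this library in the correlations was not tested. Among those most like NQO1 were LINC01089 (0.999) and KIFBP (0.999). These values are a description over 6 libraries in 2 groups, and 557 genes exceeded 0.9 for NFE2L2 and 2039 for NQO1.

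Of 15 partners and regulators of NRF2, all tested, 5 passed (33.3%, against 41.8% of all genes), 4 higher and 1 lower. Among all genes tested, 21.3% were called higher and 20.5% lower. MAFG, a small MAF protein that binds DNA together with NRF2, rose by 0.72 on the log2 scale, from 22.7 ± 2.03 to 37.5 ± 3.39 CPM. SQSTM1, the autophagy receptor p62 that binds KEAP1, rose by 0.62, from 92.0 ± 1.29 to 142 ± 1.18 CPM. GSK3B, a kinase that marks NRF2 for degradation, fell by 0.23. With the close pairs of libraries summed its log2 fold change was −0.21 and the call was lost (adjusted p = 0.0669 by edgeR, the highest over the alternatives, which began at 0.00156). NFE2L1 (0.13), a related factor, and EP300 (0.21), an acetyltransferase coactivator, were the other two that rose and were named after their values were seen. Neither was called with DESeq2, at an adjusted p under 0.01, with the close pairs summed, without siNC replicate 1 or without siTRIM28 replicate 3. NFE2L1 also lost its call without a filter on low counts and without siNC replicate 2, and EP300 without siNC replicate 3 and without siTRIM28 replicate 2. CUL3, the ligase scaffold used by KEAP1, had a log2 fold change of 0.0061 (95% confidence interval −0.09 to 0.11), and BACH1, a repressor at antioxidant response elements, had one of 0.13 (adjusted p = 0.163 by edgeR). The number of calls in this list ran from 2 to 7 over the alternatives, and was 3 without siNC replicate 1, 3 without siTRIM28 replicate 3 and 2 with the close pairs summed.

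Other targets of NRF2 lay mostly on the higher side. Of 28 listed genes 24 were tested, and ABCC2, AKR1C2, ALDH3A1 and GPX2 were too low. Of the 24, 14 passed (58.3%, against 41.8% of all genes), 12 of them higher and 2 lower. Among all genes tested, 21.3% were called higher and 20.5% lower. The median log2 fold change of the 24 was 0.29 beside 0.015 for all genes tested. TRIM16L rose by 1.20 on the log2 scale and PIR, an iron-binding nuclear protein, by 0.77. The count table lists TRIM16L under 2 identifiers, of which the one with more counts was used, and the gene has a near-identical copy, TRIM16, so its value is uncertain. PGD, an enzyme of the pentose phosphate pathway, which supplies NADPH, fell by 0.63 from 145 ± 2.60 to 93.2 ± 1.98 CPM. UGDH, named after its value was seen, was the other gene that fell (−0.61). GSR, glutathione reductase, had a log2 fold change of 0.11 (adjusted p = 0.179 by edgeR). TXN, the thioredoxin served by TXNRD1, stood at 143, 145 and 130 CPM in siNC and at 207, 147 and 148 CPM in siTRIM28. Its log2 fold change of 0.27 did not pass (adjusted p = 0.0698 by edgeR), and without siTRIM28 replicate 1 it was 0.08 (adjusted p = 0.133 by edgeR, in a range of 2.05e-05 to 0.257 over the alternatives).

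Of 17 other antioxidant enzymes 16 were tested, and 5 passed (31.2%, against 41.8% of all genes), 4 lower and 1 higher, where 20.5% of all genes were called lower and 21.3% higher. The median log2 fold change of the 16 was −0.03 beside 0.015 for all genes tested. SOD2, the mitochondrial superoxide dismutase, fell by 0.93 on the log2 scale, from 86.7 ± 1.80 to 45.4 ± 4.20 CPM. TXN2, the mitochondrial thioredoxin, fell by 0.41, and GLRX, a cytosolic glutaredoxin, rose by 0.55 from 6.79 ± 0.670 to 9.93 ± 0.718 CPM. GSS (−0.30), the next enzyme of glutathione synthesis after glutamate-cysteine ligase, and PRDX6 (−0.21), a peroxiredoxin, were the other two that fell and were named after their values were seen.

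ATF4, a factor of the integrated stress response, shares SLC7A11 as a target with NRF2. Of 12 genes listed for ATF4 and its targets, 11 were tested and 8 passed (72.7%, against 41.8% of all genes), 6 higher and 2 lower, where 21.3% of all genes were called higher and 20.5% lower. The median log2 fold change of the 11 was 0.21 beside 0.015 for all genes tested. ATF4 itself rose by 0.64, from 184 ± 6.48 to 286 ± 14.4 CPM. DDIT3, the stress factor CHOP, rose by 0.91, whereas SLC7A5, an amino acid transporter, fell by 1.26 and SHMT2, a mitochondrial enzyme of serine use, by 0.69. The number of calls in this list was 5 where the close pairs of libraries were summed.

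**Figure D3:**
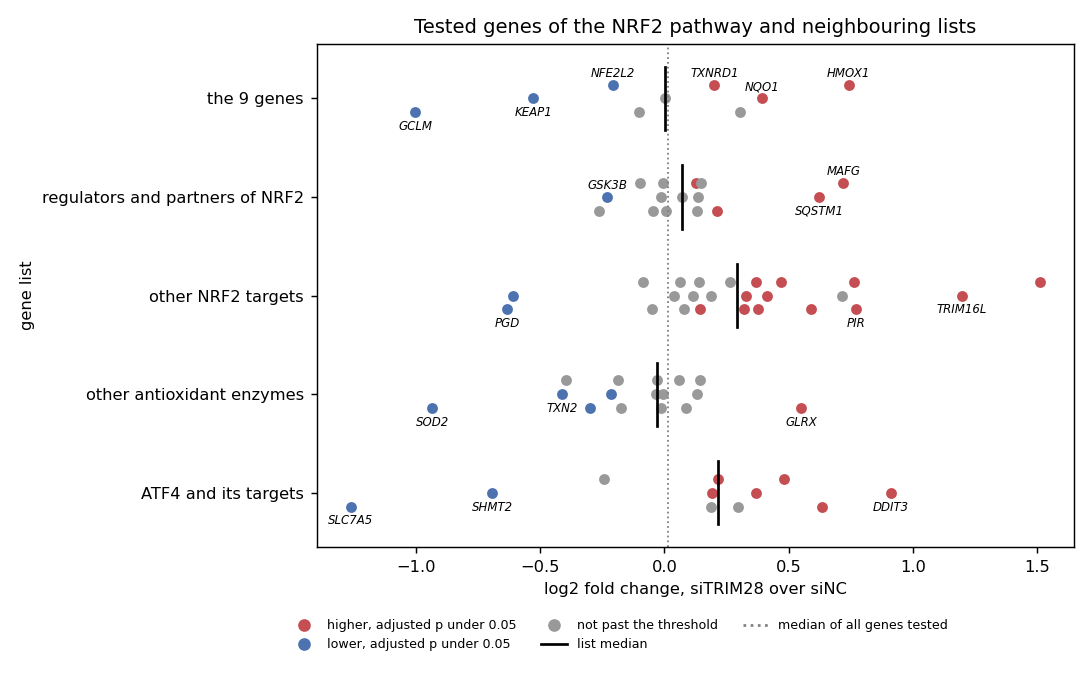
Log2 fold change of siTRIM28 over siNC for each tested gene of the 9 and of the 4 neighbouring lists, in red or blue where the adjusted p was under 0.05 and in grey otherwise, with a black line at each list's median and a dotted line at the median of all genes tested (0.015). The other NRF2 targets have a median of 0.29, and the 9 genes one of 0.0022 with calls on both sides.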

How the data were processed

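The authors deposited a table of unnormalized read counts for each gene, with GRCh38 coordinates. The submitters' processing notes name fastp 0.23.1, STAR 2.7.6a and featureCounts, whereas the annotation release, the strand setting and the treatment of duplicates are not given in the sources used here. A further table of selected genes with per-length values was not used. Genes that reached 10 counts in 3 or more libraries were kept, scaled by TMM and tested for condition alone with edgeR 4.0.16 in R 4.3.3 (glmQLFit, glmQLFTest). Benjamini-Hochberg adjusted p-values under 0.05 were called. Standard errors were derived from the F statistic as log2 fold change over its square root. The script was tested on simulated data. The 9 genes and all lists were chosen with earlier results of these data known. From each list, the text names a few genes set by role and the 3 largest changes among called genes whose groups did not overlap and whose mean count was 50 or more. Some genes that this rule names are not reported here. Alternatives were scaling by RLE, by upper quartiles and by total counts, DESeq2 1.42.0, limma-voom (limma 3.58.1), no filter, a filter of 10 counts in all libraries, a block for the replicate number, each library left out, close pairs of libraries summed and, for counts of calls, an adjusted p under 0.01. Tables, motif searches and figures were made with Python 3.11.15.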

Additional observations from a re-analysis of the deposited data

How the results depend on the processing

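Of the 9 genes, 7 changed neither sign nor call in any of the 15 alternatives. NFE2L2 lost its call where the close pairs of libraries were summed (−0.16), and its log2 fold change ran from −0.29 to −0.17 as each library was left out. GCLC, which was not called, turned sign with RLE scaling (−0.0034), DESeq2 (−0.0026), no filter (−0.0073) and the summed pairs (−0.0059), and ran from −0.033 to 0.028 as libraries were left out. CUL3, also not called, turned sign without a filter (−0.0037) and with the summed pairs (−0.0070), and ran from −0.010 to 0.029 as libraries were left out. The list of regulators had 3 calls with DESeq2, 3 at an adjusted p under 0.01, 2 with the summed pairs and 3 to 7 as libraries were left out. The ATF4 list had 5 calls with the summed pairs and 5 at an adjusted p under 0.01. TXN passed the threshold in 5 alternatives. Summing the pairs leaves 2 samples in each group, and the cause of the other changes was not tested.

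Over all genes, 7721 were called, 5393 at an adjusted p under 0.01 and 5878 by DESeq2. Samples that share a replicate number did not deviate together (correlations of 0.066, −0.024 and 0.051 over 12828 genes). With so few libraries in each group, these values cannot exclude pairing. With the replicate number as a block 7913 genes and 6 of the 9 were called. Low counts limit SLC7A11, KEAP1 and HMOX1.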
